A study of Arabidopsis thaliana with 32 samples.

Results

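The genes described here are those of the Arabidopsis mitochondrial genome, with locus names that begin with ATMG, together with the annotated features of chromosome 2 from AT2G07620 to AT2G07840, where a large piece of mitochondrial DNA is inserted in the nuclear genome. They were taken by locus name alone. Of 28394 features listed in the 6 tables of the series, 140 were members: 10 mitochondrial genome genes and 130 chromosome 2 features. RNA of the monosome fraction (single ribosomes) and of the polysome fraction (several ribosomes on an RNA), from sucrose gradients of 10-day-old whole seedlings, was sequenced in 32 libraries. The groups were 2OX, a line that expresses MCU2-YFP from the constitutive 35S promoter and is 1 transgenic line, with 3 replicates per fraction; sextuple, which carries lesions in the mitochondrial calcium uniporter (MCU) genes mcu1 to mcu6, T-DNA insertions except for a CRISPR/Cas9 allele of mcu5, and keeps residual MCU transcripts, with 3 replicates; wild type (WT) Col-0 treated with antimycin A (AA), an inhibitor of respiratory complex III, at 50 µM for 5 h by the labels (the methods give a shorter time), with 3 replicates; its vehicle control (DMSO), with 3 replicates; and untreated WT with 4 replicates. Seedlings for AA and DMSO were moved from plates to liquid medium and shaken overnight in the dark before treatment. Those of 2OX, sextuple and WT came from plates. 2OX was set against WT replicates 2, 3 and 4, and sextuple against WT replicates 1, 2 and 4, so these comparisons share 2 controls and do not bear on each other independently. Nothing in the labels says that replicates were separate cultures, so the p-values measure the spread between these samples.

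The mitochondrial genome of plants encodes core subunits of respiratory complexes I, III, IV and V, proteins of cytochrome c maturation, some ribosomal proteins, a maturase and a translocase subunit, and its transcripts are read by ribosomes inside the organelle. Many cytidines in these transcripts are edited to uridine, and in plant mitochondria a poly(A) tail marks an RNA for decay, in contrast to nuclear mRNA. The piece of mitochondrial DNA near the centromere of chromosome 2 is a hallmark of the Col-0 genome. Where both genomes hold the same stretch, a match to genomic sequence alone cannot assign a read.

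Values are the library-size-adjusted values deposited per feature, and since the depth in reads is unknown, no counting interval can be given. Features of rRNA took 15.5% to 63.4% of a library sum, highest in the 2OX monosome library of replicate 2. No ribosomal RNA locus of the mitochondrial genome was among the features analysed. The rRNA share came almost wholly from nuclear loci, and chloroplast loci reached at most 0.00593% of a library sum (AA polysome replicate 3). The shoot markers RBCS1A and LHCB1.3 and the root marker TIP2;2 were present in every library, whereas the root nitrate transporter gene NRT2.1 was at or near 0 in some of them. Values in bulk tissue cannot tell fewer mitochondria or cells from less RNA in each of them.

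The insertion was located in the RefSeq TAIR10.1 sequence, which may differ in its mitochondrial part from the TAIR10 build named in the submitters' processing notes, at chr2:3239038-3509765 (270728 bases). Of its 50-base words, 95.9% also occurred in the mitochondrial genome, and 70.3% of the words of the 367808-base mitochondrial genome occurred in it. Of the 130 chromosome 2 features listed, 120 were copies of mitochondrial DNA. From start to end of the feature, introns included, 82.6% to 100% of their 50-base words were mitochondrial, and 67 matched in full. The other 10 lay beside the insertion and shared 0%. By annotation the copies were 76 protein-coding genes, 21 transcribed pseudogenes, 15 pseudogenes and 8 tRNA genes, and 34 of them held at least 50 exonic bases of a known mitochondrial gene. Only this assembled stretch was searched for the words of the mitochondrial genes, so mitochondrial DNA missing from the assembly of chromosome 2 would not be counted. Both junctions of the assembled insertion are shown because they bound the sequence counted as shared here. Inserted bases are in capitals, on the plus strand at chr2:3239008-3239067 and chr2:3509736-3509795.
chromosome 2 at the start of the insertion: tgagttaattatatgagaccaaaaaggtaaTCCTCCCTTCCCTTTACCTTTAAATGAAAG
chromosome 2 at the end of the insertion: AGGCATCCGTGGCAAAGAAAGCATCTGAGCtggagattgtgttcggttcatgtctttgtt

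The listed mitochondrial genes fell into classes by how much of their coding sequence the insertion also holds. atp1 (ATMG01190, the alpha subunit of the ATP synthase) and rps7 (ATMG01270, a protein of the small mitochondrial ribosomal subunit) were held at 100% of their coding 50-base words, nad5 and nad1 (subunits of complex I) at 72.4% and 70.5%, rpl16 at 34.6%, cox2 (subunit of cytochrome c oxidase) at 17.8% and rps3 at 7.4%. cox1 (the catalytic subunit of cytochrome c oxidase), ccmB (cytochrome c maturation) and nad9 (complex I) were at 0%. The atp1 coding sequence of 1524 bases was identical in AT2G07698, as its first 60 bases show, with the start codon in capitals, at 68562 to 68621 of the minus strand of the mitochondrial genome and at chr2:3362505-3362564 on the plus strand.
atp1 in the mitochondrial genome: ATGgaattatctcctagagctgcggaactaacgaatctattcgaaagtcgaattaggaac
AT2G07698: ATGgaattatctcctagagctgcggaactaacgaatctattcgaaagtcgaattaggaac

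Over all 33 mitochondrial coding genes, 38 of 56 coding segments were present whole in the insertion, and 32 of these were identical. The 21370 bases of the whole segments differed at 12 positions. In nad5 the only difference in its first 2 segments was C878T (mitochondrial base, position from 1 at the first coding base, base of the copy), shown in capitals at 236030 to 236089 of the plus strand of the mitochondrial genome and at chr2:3397697-3397756 on the minus strand of AT2G07711. Of the 12 differences 5 were C in the mitochondrial genome and T in the copy, the change that RNA editing would also give, but 0 of the 12 fell on a RefSeq-annotated editing site.
nad5 in the mitochondrial genome: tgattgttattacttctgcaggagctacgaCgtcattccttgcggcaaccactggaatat
AT2G07711: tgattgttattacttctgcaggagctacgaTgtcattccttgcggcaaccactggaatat

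For rpl16 and cox2 an identical run from the first coding base ended within the coding region, after 219 and 143 bases. The ends of these runs are shown because both genomes part there, with the bases of the run in capitals, at 23474 to 23533 and 6377 to 6436 of the plus strand of the mitochondrial genome.
rpl16 in the mitochondrial genome: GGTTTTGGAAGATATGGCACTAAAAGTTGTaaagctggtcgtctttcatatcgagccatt
cox2 in the mitochondrial genome: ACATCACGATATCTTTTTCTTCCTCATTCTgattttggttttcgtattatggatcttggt

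The genes at 0% differed strongly in annotated editing. ccmB had 51 editing sites in 621 coding bases, 14 of them in the stretch shown here in capitals (18239 to 18298, minus strand), whereas cox1 had 0 in 1584 bases and begins as shown (116286 to 116345, minus strand, start codon in capitals). Among the other listed genes the number of sites ran from 1 in rps7 to 37 in nad5.
ccmB in the mitochondrial genome: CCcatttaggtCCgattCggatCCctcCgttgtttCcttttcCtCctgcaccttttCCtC
cox1 in the mitochondrial genome: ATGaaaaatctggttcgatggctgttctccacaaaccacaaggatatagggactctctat

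All 10 mitochondrial genome genes passed the filter for testing (10 or more in 3 or more libraries) in every fit. Their mean values over 6 libraries ran from 182 for rpl16 to 11600.1 for atp1 in the polysome table of 2OX and WT, and from 39.99 for ccmB to 2662 for atp1 in the monosome table. Per kilobase of coding sequence, the ATP synthase gene atp1 (7612), the ribosomal protein gene rps7 (6216) and the cytochrome c oxidase gene cox2 (5362) had the highest mean polysome levels in that table, followed by cox1 (2805), with nad9 (884), rps3 (772), ccmB (459.98) and rpl16 (338) below. nad1 and nad5, whose loci hold parts of trans-spliced genes, were left out of this ranking. Most chromosome 2 copies were low: 87 to 114 copies were listed per table, 27 to 69 of them passed the filter, and the median of their mean values was 4.07 to 18.3.

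A further 20 mitochondrial genes had a listed chromosome 2 copy but no mitochondrial row among the features analysed here, so that their values are those of the copies. These include cob (AT2G07727, cytochrome b of complex III), cox3 (AT2G07687), nad2 (AT2G07733), nad4 (AT2G07717), nad6 (AT2G07731), nad7 (AT2G07709), matR (AT2G07712 and AT2G07747, parts of the intron maturase), rpl2 (AT2G07715), rpl5 (AT2G07725) and mttB (AT2G07716, a subunit of a protein translocase). Other listed features that held exonic bases of these genes were AT2G07718 (cob and nad4), AT2G07689 (nad2), AT2G07681 (ccmC and nad6) and AT2G07773 (nad6). Which genome the reads of all these features came from cannot be told from the tables.

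A shared coding sequence did not give a fixed ratio between the values of gene and copy. AT2G07698 had 15.2% to 119% of the value of atp1 in the same polysome libraries, against 4.25% to 17.7% in the monosome libraries, without overlap between fractions within any comparison. In AA libraries the polysome value of AT2G07698 was 73.1% to 119% of that of atp1, and in DMSO libraries 39.2% to 58.4%. AT2G07711 behaved the same way towards nad5, at 109.8% to 399% in polysome libraries and 11.8% to 48.3% in monosome libraries, although ATMG00665 may hold another part of the nad5 gene than AT2G07711 does. By contrast, AT2G07696, whose coding sequence is identical to rps7 over 447 bases, did not exceed 1.055% of the rps7 value in any library. How the authors' alignment placed reads that match both genomes is not given in the sources used here, and its part in these ratios was not tested.

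**Figure D1:**
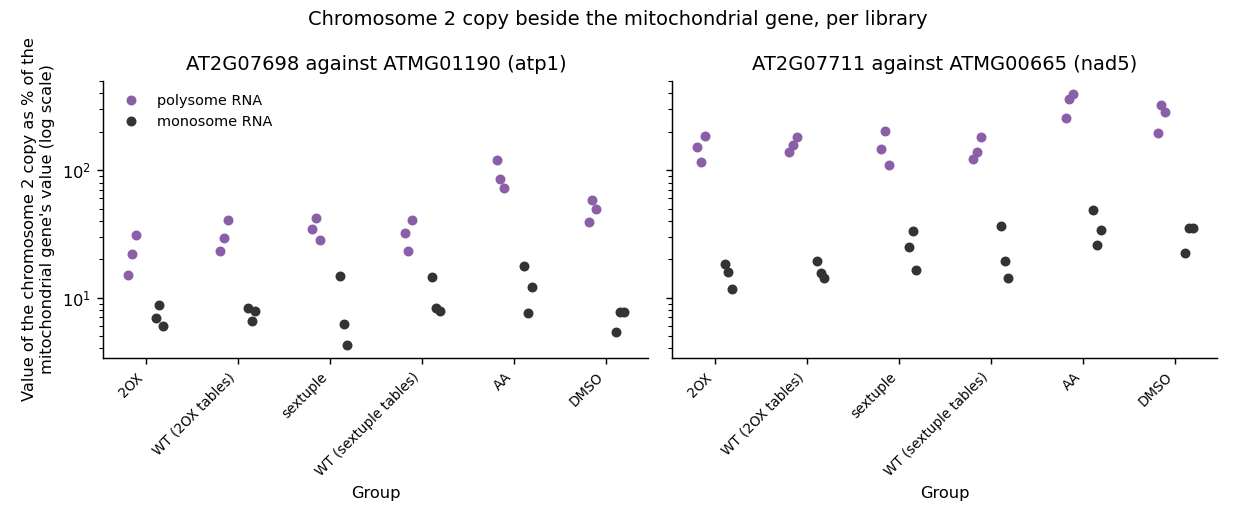
Value of a chromosome 2 copy as a percentage of the value of the mitochondrial gene it holds, in the same library (log scale), for AT2G07698 against atp1 (left) and AT2G07711 against nad5 (right). Each point is 1 library; in both panels every polysome library lies above the monosome libraries of the same group.

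Most mitochondrial genes stood high in the polysome fraction relative to the monosome fraction. The log2 ratio of polysome to monosome value was taken per replicate and set against the median ratio of all features, because both fractions were scaled in separate tables. The median over the 10 mitochondrial genes was 2.71, 1.105 and 1.72 in 2OX and 1.78, 1.59 and 1.97 in the WT replicates of that comparison. In sextuple it was 2.70, 1.02 and 3.18, against 1.78, 1.79 and 1.97 in its WT replicates, so the groups overlapped in both comparisons. Averaged over the 6 replicates, 9 of the 10 genes stood above at least 93.9% of all features in each comparison, and rps7, nad1 and ccmB stood highest. The exception was nad5 (ATMG00665), whose mean ratio was -0.93 with 2OX, -0.26 with sextuple and -0.17 with AA, below the median of all features. The chromosome 2 copies had like ratios as a group, with means of 1.71, 1.86 and 2.50 in the tables of 2OX, sextuple and AA with their controls, but these depended on the pseudocount, falling to 0.84, 0.96 and 1.58 when 10 was added before the logarithm in place of 1. AT2G07698 had a mean ratio of 3.97 with sextuple and 4.74 with AA, against 2.03 and 1.86 for atp1, whose coding sequence it holds unchanged. These fractions measure sedimentation, not binding to a ribosome.

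**Figure D2:**
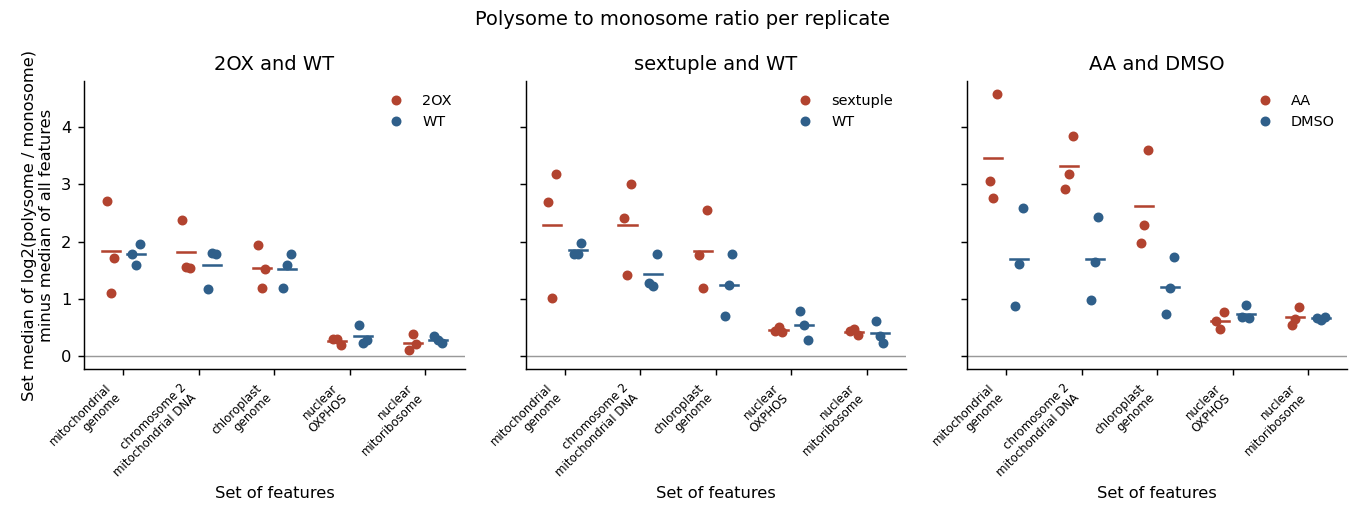
Median log2 ratio of polysome to monosome value of 5 sets of features, minus the median of all features, per replicate (points) with the group mean (line). The mitochondrial and chromosome 2 sets lie above both nuclear sets in every replicate, the chloroplast set in all but WT replicate 1 of the sextuple comparison, and AA and DMSO replicates do not overlap in the mitochondrial, chromosome 2 and chloroplast sets.

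After AA treatment, mitochondrial transcripts in these libraries, which were made from poly(A) RNA, were lower in the monosome fraction. RNA without a tail was not measured apart. In the limma fit over all 21095 features tested, 9 of 10 mitochondrial genes were lower in AA than in DMSO at an adjusted p under 0.05 and 0 were higher, beside a background of 10.4% of all features called lower. The median log2 change of the 10 genes was -1.46, against -0.02 over all features. Without DMSO replicate 1 only 3 members were called (3 mitochondrial genes), against 13 with all replicates, and leaving out DMSO replicate 2 or AA replicate 1 left 6 and 8 called. Fitted without a mean-variance trend, limma called 0 of the members (limma adjusted p = 0.073 to 0.20 for the 13 called with it).

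The subunit genes of the ATP synthase and cytochrome c oxidase showed the clearest difference. atp1 had adjusted values of 1164, 1476 and 1458 in AA monosome libraries, against 6225, 4371 and 1857 in DMSO libraries. All AA libraries lay below all DMSO libraries, and the log2 change was -1.44 ± 0.28 (SE, limma adjusted p = 0.0015). cox1 stood at 574, 620.0 and 808 in AA, against 4211, 3079 and 891 in DMSO (log2 change -1.77 ± 0.37, limma adjusted p = 0.0021). cox2 stood at 574, 678 and 768 in AA, against 2248, 1494 and 948 in DMSO (log2 change -1.14 ± 0.23, limma adjusted p = 0.0017). In each of these genes DMSO replicate 3 was the lowest of the DMSO libraries and came near the AA values. ccmB, the low and heavily edited cytochrome c maturation gene, had 6.23, 16.9 and 8.96 in AA, against 114, 57.3 and 21.6 in DMSO, again with no overlap (log2 change -2.29 ± 0.72, adjusted p = 0.030). These 4 genes were the mitochondrial genes whose groups did not overlap, beside 19.0% of all features that lay lower in AA without overlap.

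In the complex I and ribosomal protein genes the groups overlapped through DMSO replicate 3. nad5 had 703, 772 and 762 in AA and 5237, 3185 and 721 in DMSO (log2 change -1.62 ± 0.44, limma adjusted p = 0.014). nad1 had 103, 189 and 327 in AA and 751, 437 and 297 in DMSO, and nad9 had 50.4, 53.9 and 50.1 in AA and 265, 199 and 53.5 in DMSO. The 2 other DMSO replicates exceeded every AA replicate in all 3 genes. rps7 had 162, 118 and 236 in AA, against 916, 472 and 224 in DMSO, and rps3 had 46.2, 111 and 163 in AA, against 489, 454 and 142 in DMSO. The log2 changes of nad1, nad9, rps7 and rps3 were -1.31, -1.44, -1.47 and -1.73, with limma adjusted p between 0.010 and 0.042. rpl16, at 18.2, 39.4 and 14.7 in AA and 101, 108 and 11.2 in DMSO, did not pass (log2 change -1.16 ± 0.75, limma adjusted p = 0.30).

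**Figure D3:**
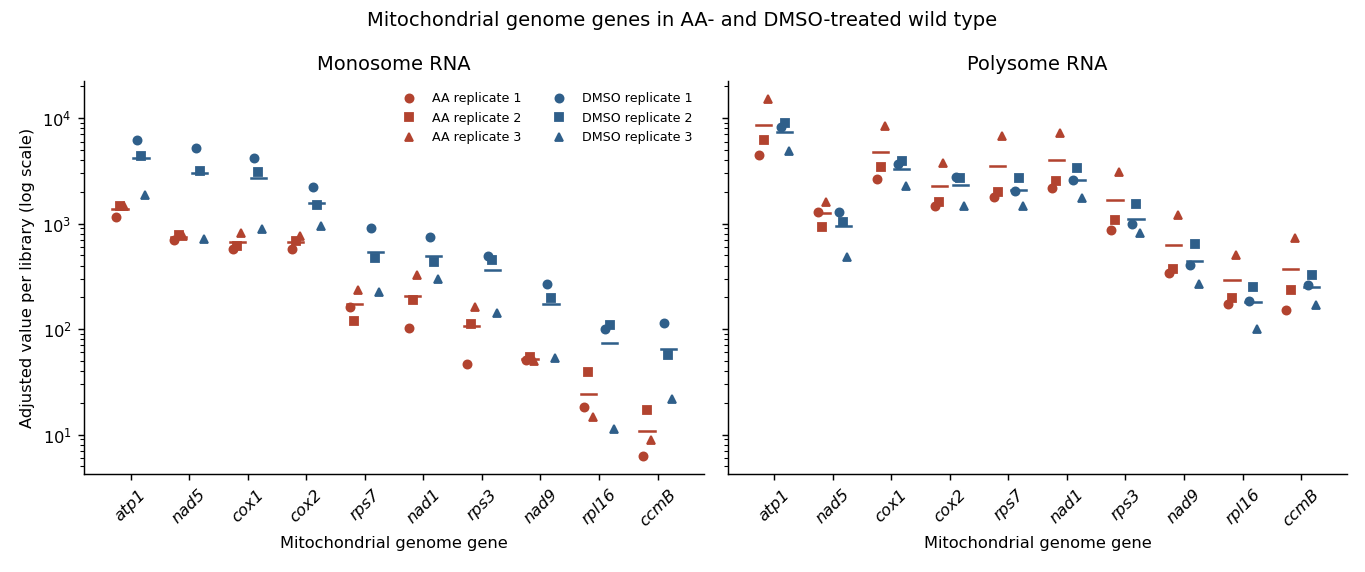
Adjusted value (log scale) of the 10 mitochondrial genome genes in AA (left of each pair) and DMSO (right) libraries of WT, for monosome RNA (left panel) and polysome RNA (right panel), with symbols by replicate and lines at the group means. In monosome RNA the DMSO means lie above the AA means for all 10 genes, with DMSO replicate 3 nearest to AA, and in polysome RNA AA replicate 3 lies above every other library.

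In the same fit 4 of 41 chromosome 2 copies tested were lower and 0 were higher, close to the background of 10.4%. Their median log2 change was -0.72, and it was -1.36 without DMSO replicate 3 and -0.46 without DMSO replicate 1. A copy of cob, AT2G07727, had 18.5, 32.7 and 65.2 in AA, against 373, 277 and 58.5 in DMSO (log2 change -2.38 ± 0.59, limma adjusted p = 0.0078). The matR copy AT2G07747 had 25.6, 43.1 and 51.0 in AA and 178, 193 and 60.9 in DMSO, without overlap. The nad5 copy AT2G07711 had 339.9, 200.5 and 259 in AA and 1169.9, 1118 and 254 in DMSO, and the nad2 copy AT2G07733 had 44.1, 37.7 and 24.7 in AA and 131, 130.4 and 52.3 in DMSO. Again the third DMSO replicate was the one nearest to AA. These fell by 1.71, 1.41 and 1.46 on the log2 scale, with limma adjusted p of 0.016, 0.020 and 0.036. AT2G07698, which holds the atp1 coding sequence unchanged, had 206, 112 and 176 in AA and 334, 336 and 143 in DMSO and did not pass (log2 change -0.66 ± 0.33, limma adjusted p = 0.18). The 2 genes tested beside the insertion, AT2G07680 and AT2G07690, did not pass.

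Mitochondrial genes with and without sequence shared with the assembled insertion were both lower. cox1, ccmB and nad9, of which no coding 50-base word occurs in that assembled stretch, had log2 changes of -1.77, -2.29 and -1.44. For atp1 and rps7, whose coding sequences are wholly shared, the changes were -1.44 and -1.47. The part of nuclear copies in these changes was not tested. When the values of a gene and of its copy were summed before the fit, 12 features were called in place of 13, 9 of them mitochondrial genes.

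**Figure D4:**
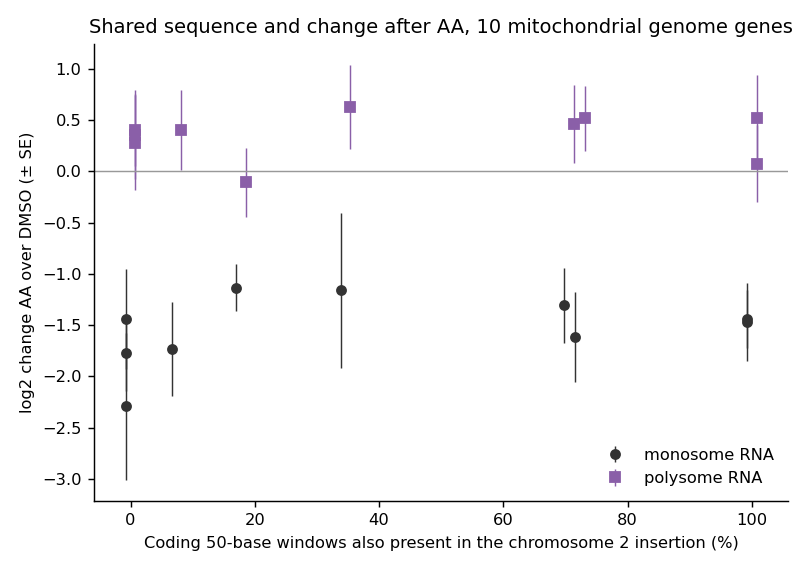
log2 change of AA over DMSO (± SE of the limma fit) of the 10 mitochondrial genome genes. The horizontal axis gives the percentage of their coding 50-base words that also occur in the assembled chromosome 2 insertion. Circles show monosome RNA (drawn slightly to the left) and squares polysome RNA (drawn slightly to the right). Monosome changes lie between -2.29 and -1.14 at every degree of sharing.

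Expressed as a share of the library sum, the 10 mitochondrial genes took 0.00964%, 0.0110% and 0.0137% of AA monosome libraries, against 0.0542%, 0.0377% and 0.0187% of DMSO libraries. The groups did not overlap. The rRNA share also differed between these libraries: it was 23.9%, 25.7% and 23.8% in AA and 36.1%, 33.6% and 15.5% in DMSO. The log2 ratio of the mean mitochondrial shares, AA over DMSO, was -1.69 with rRNA in the library sum and -1.85 without it. The chloroplast genome genes, also organellar, had 3 of 48 tested called lower in AA monosome RNA and 0 higher, with a median log2 change of -0.26.

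In polysome RNA after AA, the picture was different. Of the 10 mitochondrial genes 0 were called by limma (0 at an unadjusted p under 0.05), and their median log2 change was 0.40, against 0.01 over all features. atp1 had 4437, 6168 and 15226 in AA and 8219, 8951 and 4866 in DMSO. cox1 had 2629.6, 3477 and 8372 in AA and 3688, 3927 and 2279 in DMSO. AA replicate 3 was the highest of the 6 libraries for both genes, the lowest was AA replicate 1 for atp1 and DMSO replicate 3 for cox1, and without AA replicate 3 the median change of the 10 genes turned to -0.12. In AA replicate 3 the rRNA share was also the highest of these libraries, 35.5% against 25.2% and 22.1% in AA replicates 1 and 2, and the DMSO libraries had 28.4%, 30.8% and 20.2%. The share of the mitochondrial genes was 0.0408%, 0.0493% and 0.108% in AA and 0.0597%, 0.0639% and 0.0415% in DMSO.

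Of the chromosome 2 copies, 10 of 69 tested were called higher in AA polysome RNA and 0 lower, beside a background of 8.48% of all features called higher. Their median log2 change was 0.85, and 0.48 without AA replicate 3. The counts were sensitive to single libraries and to the variance model: 4 were called without the trend, 0 without DMSO replicate 3, 1 without DMSO replicate 1, 5 without AA replicate 3, 6 without AA replicate 2 and 22 without AA replicate 1. In 17 of the 69 the AA values lay wholly above the DMSO values, beside 18.0% of all features. In all, 64 of the 69 had a log2 change above 0.

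Among the copies of complex III and IV genes, AT2G07727 (cob) had 644, 811 and 1447 in AA and 348, 602 and 262 in DMSO (log2 change 1.26 ± 0.33, limma adjusted p = 0.019). AT2G07687 (cox3) had 306, 235 and 546 in AA and 134, 206 and 99.1 in DMSO (log2 change 1.27 ± 0.33, adjusted p = 0.020). All AA libraries exceeded all DMSO libraries in both. The complex I copies AT2G07731 (nad6) and AT2G07709 (nad7) had log2 changes of 1.20 and 1.16 (limma adjusted p = 0.030 and 0.033), with 65.1, 87.4 and 122 in AA against 31.3, 51.6 and 33.9 in DMSO for nad6. The ribosomal protein copy AT2G07725 (rpl5) had 176, 184 and 360.2 in AA and 70.8, 123 and 64.4 in DMSO, with the smallest p of the members (log2 change 1.45 ± 0.33, limma adjusted p = 0.010). AT2G07698 (atp1) had 5292, 5269 and 11131 in AA and 3222, 5230.2 and 2423 in DMSO, just past the threshold (log2 change 0.98 ± 0.31, limma adjusted p = 0.049). Its groups were parted only by the narrow gap between AA replicate 2 and DMSO replicate 2. The other 4 called, AT2G07659, AT2G07662, AT2G07806 and AT2G07835, are uncharacterized protein-coding annotations with log2 changes of 1.07 to 1.42. The chloroplast genome genes had a like median in this table, 0.84, with 6 of 69 called higher.

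**Figure D5:**
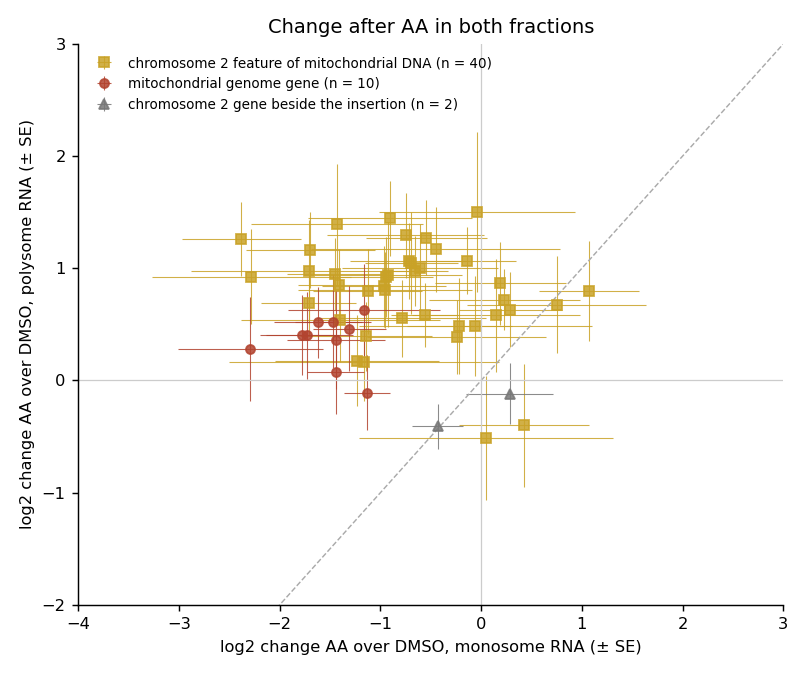
log2 change of AA over DMSO in monosome RNA (horizontal) and in polysome RNA (vertical), each ± SE of the limma fit, for members tested in both fractions; the dashed line marks equal change. All 10 mitochondrial genes and 36 of 40 chromosome 2 copies lie above the line, and so does 1 of the 2 genes beside the insertion.

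Translational efficiency (TE) is taken in this field as the polysome to monosome ratio, and its change, on the log2 scale the polysome change less the monosome change, was tested in 1 limma model over both fractions. Of the 10 mitochondrial genes 0 passed, and the median difference was 1.90, against 0.04 over all features. At an unadjusted p under 0.05 there were 9, and the share of all features at that threshold is not given here. The chromosome 2 copies had 5 of 72 called higher and 0 lower, beside a background of 0.101% called higher, with a median of 1.63. Those were AT2G07659, AT2G07731 (nad6), AT2G07727 (cob), AT2G07733 (nad2) and AT2G07747 (matR). With the replicate as a block, since same-numbered fractions of AA and DMSO deviated together, 8 of the 10 mitochondrial genes and 11 of the 72 copies were called higher, beside a background of 0.446%. In that fit cox1 had a difference of 2.18 (adjusted p = 0.0027), nad5 2.14 (adjusted p = 0.0016), nad1 1.77 (adjusted p = 0.0031) and rps3 2.14 (adjusted p = 0.0042), and rps7, atp1, ccmB and cox2 also passed. nad9 and rpl16 did not. In the unblocked model 1 member was called without the variance trend, 3 without the filter on low values, and 0 when AA replicate 1, AA replicate 2, DMSO replicate 1 or DMSO replicate 2 was left out, and 8 without DMSO replicate 3.

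The same contrast is seen replicate by replicate in the polysome to monosome ratio relative to all features. The median over the 10 mitochondrial genes was 3.06, 2.76 and 4.58 in AA and 0.88, 1.61 and 2.596 in DMSO, and the groups did not overlap. For the copies it was 2.92, 3.17 and 3.85 in AA and 0.99, 1.65 and 2.44 in DMSO, and for chloroplast genome genes 1.98, 2.30 and 3.60 in AA and 0.74, 1.18 and 1.73 in DMSO. nad5 (ATMG00665) shared the difference at a lower level, with 0.98, 0.42 and 1.29 in AA and -1.88, -1.46 and -0.38 in DMSO. Nuclear genes of the same machineries were unlike these sets: the nuclear oxidative phosphorylation genes had 0.61, 0.48 and 0.77 in AA and 0.68, 0.89 and 0.67 in DMSO, and the nuclear genes of the mitochondrial ribosome 0.54, 0.64 and 0.86 in AA and 0.67, 0.63 and 0.68 in DMSO. Their median TE differences were -0.03 and 0.02, with 0 of 75 and 0 of 57 called by limma. At an unadjusted p under 0.05 there were 35 and 7, again without a share of all features. RPOTm and RPOTmp, the nuclear genes of the phage-type RNA polymerases that transcribe the mitochondrial genome, were called in no fit, with AA changes of 0.06 and 0.48 in monosome RNA (limma adjusted p = 0.78 and 0.17).

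In 2OX seedlings no member passed. In monosome RNA limma called 0 of 10 mitochondrial genes and 0 of 30 copies (0 and 0 at an unadjusted p under 0.05), beside 0.0866% of all features in either direction. In polysome RNA it called 0 of 10 and 0 of 57, beside 0.171% of all features called. In TE it called 0 of 10 and 0 of 59, beside 0.00486%. At an unadjusted p under 0.05 there were 4 and 7 in polysome RNA and 0 and 3 in TE. The share of all features at that unadjusted threshold is not given here. All 10 mitochondrial genes had a polysome log2 change above 0, with a median of 0.54, but single libraries moved this median, to 0.23 without 2OX replicate 1, 0.24 without WT replicate 4 and 0.90 without 2OX replicate 3. 2OX replicate 1 was the highest 2OX library: atp1 had 19944, 12061 and 6886 in 2OX and 12771, 12154 and 5784 in WT. The groups overlapped. Among the mitochondrial genes ccmB came nearest to the threshold, with 540.3, 357 and 229 in 2OX against 246, 210.0 and 131 in WT (log2 change 0.90 ± 0.29, limma adjusted p = 0.61). Its lowest 2OX library was below its highest WT library. In 6 of 57 copies the 2OX polysome values lay wholly above the WT values, beside 5.36% of all features, AT2G07682 among them with 144, 93.3 and 64.2 in 2OX and 33.6, 43.2 and 56.0 in WT.

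In sextuple seedlings no member passed in the fits without a replicate block. limma called 0 of 10 mitochondrial genes and 0 of 27 copies in monosome RNA, beside 0.101% of all features called. In polysome RNA it called 0 of 10 and 0 of 54, beside 0.149%. In TE it called 0 of 10 and 0 of 55 (0 and 2 unadjusted), beside 0.0%. The monosome values were dominated by replicate 2: atp1 had 1227, 5349 and 840.1 in sextuple and 1408, 3014 and 1390.0 in WT. That library also had an rRNA share of 54.0%, whose part in the result was not tested. The polysome log2 changes of all 10 mitochondrial genes were above 0, with a median of 0.45 that moved to 0.28 without WT replicate 1 and 0.77 without WT replicate 2. Those with an unadjusted p under 0.05 were rps7, nad5, nad1 and rps3, between 0.53 and 0.64 on the log2 scale. Their limma adjusted p was 0.38 to 0.40. Some copies, AT2G07827 and AT2G07659 among them, also fell under that unadjusted threshold. The share of all features that did so is not given here. For rps7 the values were 2847, 3337 and 2126 in sextuple and 1146, 2776 and 1667 in WT, where WT replicate 2 lay within the sextuple range. In 12 of 54 copies the sextuple polysome values lay wholly above the WT values, beside 7.27% of all features. One of these, AT2G07725 (rpl5), had 132, 95.5 and 79.5 in sextuple and 46.2, 60.4 and 60.1 in WT (log2 change 0.85 ± 0.28, limma adjusted p = 0.33).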

How the data were processed

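RNA of monosome and polysome fractions was sequenced by the study from poly(A) RNA with a TruSeq kit. The authors deposited, per gene and library, a signal adjusted for library size, in 6 tables scaled separately; the submitters' processing notes name Bowtie 0.12.2 and TAIR10, and the handling of multiply matching reads is not given in the sources used here. Columns of the authors' own fold changes and p-values were not used.

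Values were taken as log2(value + 1), so that changes of low features are understated. Features that reached 10 in 3 or more libraries entered limma 3.58.1 (R 4.3.3; lmFit, eBayes with trend; two-sided; Benjamini-Hochberg over all features, threshold 0.05) in 9 fits: monosome, polysome, and their difference (interaction of group and fraction) for each of 3 comparisons. Scripts were tested on simulated data. Members and lists were chosen with earlier results of these data known; the nuclear lists come from the study's supplement. Named genes are those called in a fit (at most 10 per fit), the highest of each role class and the highest copies. Those outside this rule, such as AT2G07682, AT2G07696 and the members nearest the threshold in 2OX and sextuple, were chosen after their values were seen. Sequences and annotation are RefSeq TAIR10.1; mitochondrial genes were matched by symbol. The 50-base words from start to end of a feature, introns included, were compared on both strands. A feature with at least 50% of words in the mitochondrial genome was called a copy. Both fractions are cut from a gradient of 1 extract by the study's methods, and the labels number them alike. Deviations of same-numbered fractions correlated at 0.113 to 0.31 in AA and DMSO and at 0.118 to 0.455 in 2OX and WT, so the numbers were taken as a pairing in these comparisons. Among sextuple and its WT they correlated at 0.011 to 0.322, and the lowest, WT replicate 4, is also among the 2OX controls, where it had 0.189, so the check did not settle the pairing of that replicate.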

Additional observations from a re-analysis of the deposited data

Results flagged for a closer look

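Chromosome 2 copies that changed differently in polysome and in monosome RNA after AA were tested by the interaction of treatment and fraction in limma (2-sided, adjusted over 21769 features), and 5 passed. AT2G07659, an uncharacterized annotation of which all 50-base words are mitochondrial, had a fitted difference of 5.25 (adjusted p = 0.018). Its 3 AA monosome values were listed at or next to 0, against 9.81, 42.9 and 5.11 in DMSO, so the fitted size depends on the pseudocount (2.44 with 10 added) and is no fold change. AT2G07731, the nad6 copy, had a difference of 5.05 (adjusted p = 0.029), with 0.0782, 0.127 and 5.39 in AA and 55.0, 46.4 and 7.78 in DMSO monosome RNA. The AA values of 0.0782 and 0.127 are also next to 0, so this fitted size too depends on the pseudocount and is no fold change. AT2G07727, a cob copy, had a difference of 3.64 (adjusted p = 0.030). AT2G07733, a nad2 copy, had 2.40 (adjusted p = 0.041), with 580, 635 and 1312 in AA and 388, 597 and 288 in DMSO polysome RNA. AT2G07747, a matR copy, had 2.41 (adjusted p = 0.049), with 675, 830.0 and 1378 in AA and 632, 772 and 373 in DMSO polysome RNA. In all 5 the AA replicates had a higher polysome to monosome ratio than each DMSO replicate.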

How the results depend on the processing

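With a pseudocount of 10, with libraries rescaled by median ratios over nuclear genes, and with gene and copy summed, the counts of members called stayed within 1.5 times the main count in all 9 fits. Without the filter the AA TE count was 3 in place of 5. Without a variance trend the counts were 0 (AA monosome), 4 (AA polysome) and 1 (AA TE). With the replicate block the AA TE count was 19, and 1 member, AT2G07711 (nad5), was called in sextuple polysome RNA (log2 change 0.93, limma adjusted p = 0.041); the block moved no other count by over 1.5 times, but took the median change of the mitochondrial genes in 2OX polysome RNA to 0.0084 (0.54 without it). The numbers shared between treatment and control do not pair those samples (correlations of -0.131 to 0.185). The mean polysome to monosome ratio of the copies was 0.84 (2OX), 0.96 (sextuple) and 1.58 (AA) with a pseudocount of 10.

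Leaving out 1 replicate gave 3 to 19 members called in AA monosome RNA, 0 to 22 in AA polysome RNA and 0 to 8 in AA TE, and 0 in each fit of 2OX and sextuple. The polysome log2 changes of uncalled mitochondrial genes after AA turned sign for 8 of 10: they ranged from -0.094 to 0.87 (rps7), -0.081 to 0.79 (nad1), -0.085 to 0.75 (cox1), -0.15 to 0.75 (rps3), -0.37 to 0.77 (ccmB), -0.23 to 0.68 (nad9), -0.44 to 0.45 (atp1) and -0.54 to 0.13 (cox2), whereas nad5 (0.10 to 0.80) and rpl16 (0.14 to 0.93) kept theirs. The causes were not tested. Depth in reads is unknown, and 3 samples per group limit the precision.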
